A study of Mus musculus with 14 samples.

Results

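The genes examined were 10 genes described as targets of miR-142 in blood cells before these samples were sequenced: Rac1, Wasl, Cfl2, Twf1 and Rock2 of the actin cytoskeleton, the signalling genes Il6st, Tirap and Prkca, the chromatin gene Ash1l and the protease gene Lgmn. They were found by their symbols among the 24091 genes of the deposited count table, and all 10 were among the 12248 genes with enough reads for a test. The libraries came from sorted spleen T cells of 8 Mir142+/+BCR-ABL mice, the model of chronic phase chronic myeloid leukemia (CP CML), and 6 Mir142−/−BCR-ABL mice, the model of blast crisis (BC CML). All 14 mice carried the SCLtTA/BCR-ABL transgenes on the C57Bl/6j (CD45.2) background, were 6 to 10 weeks old, and had BCR-ABL switched on for 3 weeks by taking away tetracycline (tet-off), with no other treatment given. The SCL promoter directs BCR-ABL to stem and progenitor cells, and Mir142 is missing from every cell of the BC CML mice rather than from T cells alone. No mice without BCR-ABL were sequenced in this experiment, and the sex of each mouse was not given.

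miR-142 is a microRNA made by nearly all blood cells. Its precursor gives 2 mature strands, miR-142-3p and miR-142-5p, which load into Argonaute and pair, mainly through bases 2 to 8 (the seed), with sites in the 3′UTR of messenger RNAs, which are then destabilized or translated less. Published targets of miR-142 include many regulators of actin, the filament system that T cells remodel when they migrate or form a synapse with an antigen-presenting cell.

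The mature strands are shown first because their seeds, in capitals, define the matches searched for in the genes. They were taken from RefSeq (GRCm38.p6, the same build as mm10) and lie on the plus strand at chr11:87756903-87756925 and chr11:87756867-87756887.
miR-142a-3p: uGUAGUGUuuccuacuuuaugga
miR-142a-5p: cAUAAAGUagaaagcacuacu
A match of 8 bases (8mer) pairs with the whole seed and is followed by an A (ACACTACA for 3p, ACTTTATA for 5p). The shorter matches were ACACTAC and CACTACA for 3p and ACTTTAT and CTTTATA for 5p, counted only outside an 8mer and on the transcribed strand of the longest 3′UTR of each gene in GENCODE vM21. The 5 genes with an 8mer of miR-142-3p are shown with 11 bases on either side, with the match in capitals. Their positions in mm10 are chr5:143506235-143506264 for Rac1, chr12:54860412-54860441 for Cfl2 and chr15:94578180-94578209 for Twf1, all on the minus strand, and chr12:16984895-16984924 for Rock2 and chr13:112506252-112506281 for Il6st, both on the plus strand.
Rac1: gagattactttACACTACAttgtacatgga
Cfl2: tgagtcttgaaACACTACAgatattttgaa
Twf1: tgaagcctagtACACTACAtcgaagtcaat
Rock2: gtcataaagtcACACTACAttgcacaggac
Il6st: gaccagaattcACACTACAaggctggcacc
For the other 4 genes with a match, 1 match each is shown, from chr6:24616226-24616254 (Wasl, minus strand), chr3:89077901-89077929 (Ash1l, plus strand), chr9:35187413-35187441 (Tirap, minus strand) and chr11:107938347-107938375 (Prkca, minus strand). The first 3 are matches to miR-142-3p and that of Prkca is a match to miR-142-5p.
Wasl: tgaaatactaaACACTACttcctgtctat
Ash1l: taccgactgaaACACTACtcttattttct
Tirap: cacacacacacACACTACtgaaactcttc
Prkca: aggatcaagatACTTTATgctgatatcaa
Lgmn, whose longest 3′UTR has 486 bases, held none of these matches.

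Libraries had between 15703702 and 19914531 reads on genes. Mir142 had between 302 and 650 reads in each CP CML mouse and 0 reads in each BC CML mouse, as the labels say. The T cell identity markers were present in every mouse and summed to between 6113 and 6924 CPM in CP CML and between 7731 and 8250 CPM in BC CML, where CPM is the read count relative to library size, normalized for composition (TMM). Of the 15 identity markers 8 were higher and 2 lower in BC CML. Cd4, the coreceptor of helper T cells, was between 352 and 434 CPM in CP CML and between 191 and 295 CPM in BC CML. Cd8a, a chain of the coreceptor of cytotoxic T cells, was between 612 and 760 CPM and between 1071 and 1478 CPM, and the groups did not overlap for either gene. Cd8b1, the other chain, overlapped, with between 388 and 466.3 CPM and between 414 and 550 CPM. Markers of naive T cells summed to between 4890 and 6238 CPM in CP CML and between 2683 and 3852 CPM in BC CML, with 7 of 7 lower. Markers of other cells were also present: the 19 neutrophil and monocyte markers summed to between 198 and 858 CPM in CP CML and between 1300 and 2631 CPM in BC CML (17 of 19 higher), the B cell markers to between 62.6 and 185 CPM and between 105 and 540 CPM (7 of 9 higher), the dendritic cell markers to between 7.57 and 21.9 CPM and between 32.8 and 121 CPM (3 of 5 tested higher), and the natural killer cell markers to between 56.9 and 77.3 CPM and between 176 and 299 CPM (4 of 4 higher). The basophil and mast cell markers summed to between 4.86 and 10.9 CPM in CP CML and between 19.2 and 49.6 CPM in BC CML (2 of 4 tested higher), without overlap. The sums of the erythroid markers (15.6 to 63.6 CPM and 41.7 to 72.3 CPM) and of the megakaryocyte and platelet markers (3.31 to 5.82 CPM and 2.71 to 6.27 CPM) overlapped between the groups. No listed marker in the table was at 0 in all mice of a group. These marker values move with the groups compared below, and their part in the differences of the 10 genes was not tested. The library names share a prefix within each group whose meaning is not given, so whatever it stands for cannot be told apart from genotype. In bulk RNA a change in the cells that make a transcript and a change in RNA per cell cannot be told apart.

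Of the 10 reported targets, 8 were higher in BC CML and none was lower at an adjusted p-value below 0.05 (edgeR's quasi-likelihood test, Benjamini-Hochberg over all tested genes). Cfl2, Wasl, Lgmn and Twf1 rose most, Rock2 and Rac1 rose by nearly 1.5-fold, Ash1l and Prkca rose less, and Il6st and Tirap were not called. The median log2 fold change of the 10 genes was 0.55, beside −0.01 over all tested genes. Differences between these groups were widespread: 65.2% of all tested genes were called, 32.6% as higher and 32.7% as lower in BC CML. In 6 of the 10 genes all BC CML mice lay above all CP CML mice, which held for 19.3% of all tested genes. None of the 10 had all BC CML mice below all CP CML mice, a pattern seen in 17.6% of tested genes.

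**Figure D1:**
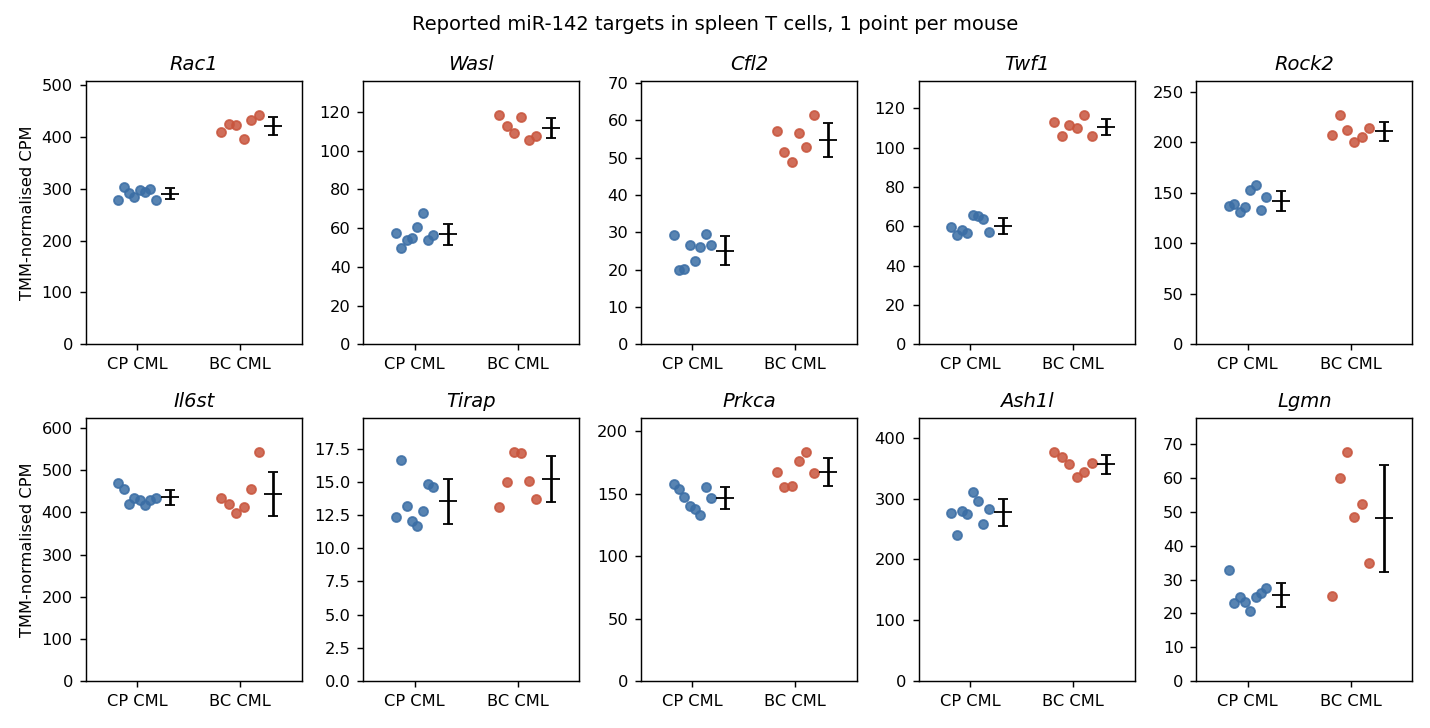
TMM-normalised CPM (vertical axes, each starting at 0) of the 10 reported miR-142 targets in 8 CP CML and 6 BC CML mice, 1 point per mouse, with the mean and SD as a bar beside each group. The groups are fully apart for Rac1, Wasl, Cfl2, Twf1, Rock2 and Ash1l, overlap for Prkca, Tirap and Il6st, and the BC CML mice are spread widely for Lgmn.

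Rac1 encodes a small GTPase that switches on branched actin assembly at the leading edge of a cell. It is listed on the minus strand at chr5:143505481-143527993. Its level in CP CML was 278 CPM at the lowest, 293 at the median and 304 at the highest, and in BC CML 396, 424 and 442 CPM. The mean rose from 291 ± 9.98 CPM (SD, n = 8) to 421 ± 16.5 (SD, n = 6), a 1.45-fold rise (log2 fold change 0.53, SE 0.03, adjusted p = 3.4e-10; SE is the standard error of the fitted change). Mice within a group differed little, with a coefficient of variation of 3.43% in CP CML and 3.92% in BC CML.

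Wasl encodes N-WASP, which carries the signal from small GTPases to the Arp2/3 complex, the machine that starts branched filaments, and is listed at chr6:24613810-24664995 (minus strand). In CP CML it ranged from 49.9 CPM through a median of 55.7 to 67.8 CPM, and in BC CML from 106 through 111 to 118 CPM. The lowest BC CML mouse was thus well above the highest CP CML mouse. Wasl rose 1.97-fold from 56.8 ± 5.39 to 112 ± 5.21 CPM (log2 fold change 0.98, SE 0.06, adjusted p = 6.5e-11).

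Cfl2, at chr12:54858819-54862877 (minus strand), encodes cofilin 2, which severs and takes apart actin filaments. It had the largest log2 fold change of the 10 genes, above that of 91.3% of all tested genes. The CP CML mice had between 19.9 and 29.6 CPM (median 26.2) and the BC CML mice between 48.8 and 61.3 CPM (median 54.7). Cfl2 rose 2.18-fold from 25.1 ± 3.84 to 54.7 ± 4.53 CPM (log2 fold change 1.13, SE 0.09, adjusted p = 7.3e-09).

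Twf1, at chr15:94577948-94589824 (minus strand), encodes twinfilin 1, which binds actin monomers and filament ends. Its CP CML values were between 55.3 and 65.7 CPM (median 58.8) and its BC CML values between 106 and 116 CPM (median 111). Twf1 had the lowest p-value of the 10 genes (adjusted p = 1.7e-11), with a rise from 60.1 ± 4.13 to 110 ± 4.15 CPM and a log2 fold change of 0.88 (SE 0.04).

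Rock2, at chr12:16894978-16988274 (plus strand), encodes a kinase that drives contraction by myosin II. It had between 131 and 158 CPM in CP CML (median 138) and between 200 and 227 CPM in BC CML (median 210), again without overlap. The rise was 1.49-fold, from 142 ± 9.61 to 211 ± 9.22 CPM (log2 fold change 0.57, SE 0.04, adjusted p = 4.3e-09).

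Each of these actin genes has a close family member that is also expressed in T cells and was not in the list of reported targets, so the ratio of the 2 transcripts was compared in each mouse. The pairs were chosen with earlier results known, and another relative can give the opposite order, as Dstn does for Cfl2 and 4 of the other protein kinase C genes do for Prkca. Rac2, the Rac GTPase of blood cells, had 893 ± 34.8 CPM in CP CML and a log2 fold change of 0.03 (adjusted p = 0.464). Was, the blood cell counterpart of Wasl, fell by 0.32 on the log2 scale (SE 0.03, adjusted p = 1.4e-07). Smaller falls were measured for Twf2, at −0.23 (adjusted p = 1.9e-05), Cfl1, at −0.19 (adjusted p = 0.00183), and Rock1, at −0.12 (adjusted p = 0.00555). The log2 ratio of target to family member was higher in BC CML by 0.50 for Rac1 over Rac2 (SE 0.04), by 1.31 for Wasl over Was (0.07), by 1.33 for Cfl2 over Cfl1 (0.11), by 1.11 for Twf1 over Twf2 (0.05) and by 0.70 for Rock2 over Rock1 (0.03). In each of these 5 pairs the ratio in every BC CML mouse was above that in every CP CML mouse. A p-value would not count the choice of the pairs, so none is given for the ratios. Twf1 went from below Twf2 in read number, with a log2 ratio of −0.85 ± 0.10 in CP CML, to above it, at 0.26 ± 0.07 in BC CML. The ratio of Prkca to Prkcb was higher by 0.27 (SE 0.06), with overlap between the groups. Dstn, which encodes destrin, another relative of cofilin 2, was unlike Cfl1: it rose from 19.4 ± 2.72 to 83.9 ± 14.7 CPM (log2 fold change 2.12, adjusted p = 4.0e-11).

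**Figure D2:**
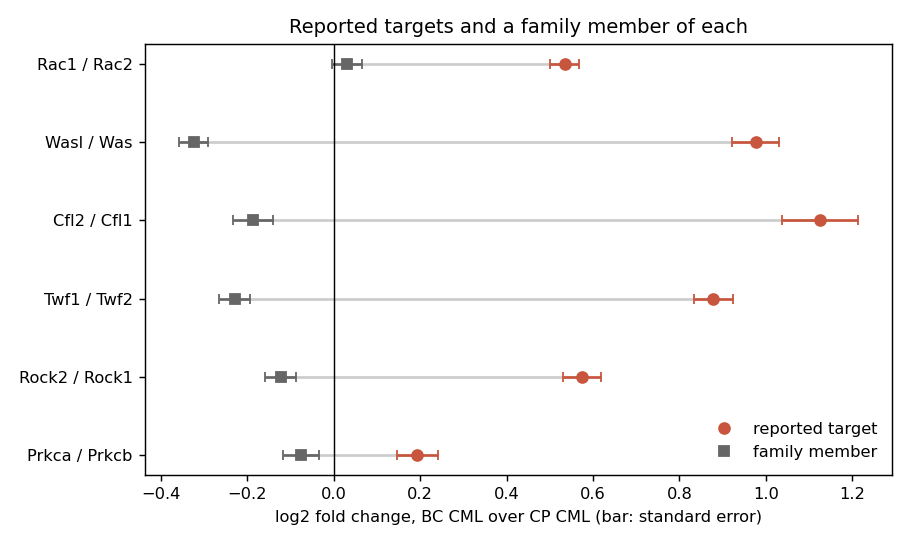
Log2 fold change between BC CML and CP CML (horizontal axis) with its standard error for 6 reported targets (circles) and a family member of each (squares), 1 pair per row. In these 6 pairs, which were chosen with the values known, each circle lies to the right of its square; Dstn, Prkce, Prkci, Prkcz and Prkcd, which are not drawn, had larger log2 fold changes than Cfl2 or Prkca.

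The signalling genes moved less. Il6st encodes gp130, the receptor chain shared by interleukin 6 and related cytokines, and is listed at chr13:112464070-112506860 (plus strand). It had between 417 and 470 CPM in CP CML (median 431) and between 399 and 543 CPM in BC CML (median 428). BC CML mouse 6 had the 543 CPM, and the other 5 BC CML mice lay between 399 and 456 CPM, 2 of them below the CP CML range. The fitted change was 0.03 on the log2 scale (SE 0.06, adjusted p = 0.679) with a 95% confidence interval from −0.10 to 0.15, and it was −0.04 without BC CML mouse 6. Of the receptor chains that pair with gp130, Il6ra, which binds interleukin 6, fell from 202 ± 14.4 to 68.9 ± 10.4 CPM (log2 fold change −1.55, adjusted p = 5.0e-11), and Lifr, which binds leukemia inhibitory factor, rose from 4.92 ± 2.09 to 24.6 ± 7.01 CPM (2.33, adjusted p = 3.1e-06).

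Tirap encodes an adaptor that brings MyD88 to Toll-like receptors 2 and 4, and is listed at chr9:35184391-35200291 (minus strand). It was the least expressed of the 10 genes, with between 11.7 and 16.7 CPM in CP CML (median 13.0) and between 13.1 and 17.3 CPM in BC CML (median 15.1). The groups overlapped over most of their range, and the fitted change was 0.17 on the log2 scale (SE 0.09, adjusted p = 0.100) with a 95% confidence interval from −0.02 to 0.37. CP CML mouse 2 had the highest value of its group, and without it the log2 fold change was 0.22 with an adjusted p of 0.0293. The partners of Tirap went in different directions. Myd88 fell from 91.3 ± 8.01 to 64.7 ± 4.25 CPM (log2 fold change −0.50, adjusted p = 7.5e-07). Tlr2 rose from 7.43 ± 0.65 to 11.6 ± 1.79 CPM (0.64, adjusted p = 1.5e-05). Tlr4 had a log2 fold change of 0.89 (adjusted p = 0.000559), with overlap between CP CML (3.50 to 6.10 CPM) and BC CML (5.27 to 14.6 CPM). Both receptors were at low levels, and the part of the neutrophils and monocytes whose markers are given above was not tested.

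Prkca encodes protein kinase C alpha, a calcium-dependent kinase downstream of the T cell receptor, at chr11:107933387-108343888 (minus strand). It lies on the same chromosome as the deleted Mir142 gene, 20.18 Mb away. The CP CML mice had between 133 and 158 CPM (median 147) and the BC CML mice between 155 and 183 CPM (median 167). The 2 lowest BC CML mice, at 155 and 156 CPM, fell within the CP CML range. Prkca rose by 1.14-fold, from 147 ± 8.99 to 168 ± 11.1 CPM (log2 fold change 0.19, SE 0.05, adjusted p = 0.00184). It was not alone in its family: Prkce (0.79), Prkci (0.51), Prkcz (0.26), Prkcd (0.24) and Prkcq (0.12) also rose, and Prkcb and Prkch had log2 fold changes of −0.08 and −0.03 that were not called.

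Ash1l, at chr3:88950364-89079375 (plus strand), encodes a histone methyltransferase that marks lysine 36 of histone H3. It had between 240 and 311 CPM in CP CML (median 278) and between 335 and 377 CPM in BC CML (median 358). The groups did not overlap, though the rise was only 1.29-fold, from 278 ± 21.9 to 357 ± 15.6 CPM (log2 fold change 0.36, SE 0.05, adjusted p = 4.9e-06). Nsd1, another enzyme acting on the same residue, fell from 563 ± 12.5 to 458 ± 9.18 CPM (log2 fold change −0.30, adjusted p = 9.8e-08), and Setd2 had a log2 fold change of 0.03 that was not called (adjusted p = 0.378).

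Lgmn encodes legumain, a lysosomal protease that cuts after asparagine and is abundant in macrophages and dendritic cells. It is listed at chr12:102394098-102439697 (minus strand). The CP CML mice had between 20.6 and 32.9 CPM (median 24.8). The BC CML mice had 25.1, 60.1, 67.7, 48.6, 52.3 and 34.8 CPM, so that 1 of them lay inside the CP CML range and another just above it. The mean rose from 25.4 ± 3.67 to 48.1 ± 15.8 CPM (log2 fold change 0.92, SE 0.18, adjusted p = 0.00054). Lgmn varied more between BC CML mice (coefficient of variation 32.9%) than any of the other 9 genes, where the largest was 11.7%. The BC CML mouse with 25.1 CPM of Lgmn had the lowest sum of neutrophil and monocyte markers in its group (1300 CPM), but the mouse with 34.8 CPM had the highest (2631 CPM). The mouse with the most Lgmn (67.7 CPM) had the lowest sums of dendritic cell markers (32.8 CPM) and B cell markers (105 CPM) in its group, whereas the mouse with the next most Lgmn (60.1 CPM) had the highest sum of dendritic cell markers (121 CPM) and the second highest of B cell markers (338 CPM). Rac1 in the BC CML mice lay between 396 and 442 CPM. It was highest (442 CPM) in the mouse with the highest sum of neutrophil and monocyte markers, and 409 CPM in the mouse with the lowest sum. The lowest Rac1 value (396 CPM) was in a mouse with a sum of 1888 CPM. The part of these cells in the values of Lgmn and Rac1 was not tested.

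**Figure D3:**
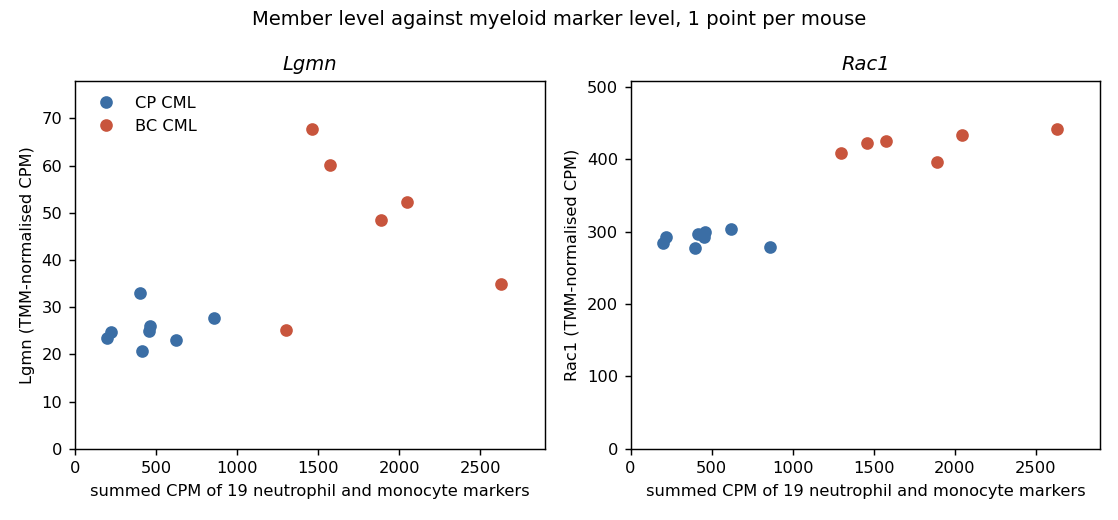
CPM of Lgmn (left) and Rac1 (right) on the vertical axes against the summed CPM of 19 neutrophil and monocyte markers on the horizontal axes, 1 point per mouse. The marker sums of the groups do not overlap (at most 858 CPM in CP CML and at least 1300 CPM in BC CML), and Lgmn is lowest in the BC CML mice with the lowest and the highest sums.

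In the longest annotated 3′UTR, 9 of the 10 genes held at least 1 match to a miR-142 seed, 8 to miR-142-3p, 6 to miR-142-5p and 5 to both. This can be set beside 30.7%, 12.1%, 23.5% and 4.90% of the 11506 tested genes with a 3′UTR. The 3′UTRs of the reported targets were longer, with a median of 2831 bases against 1187 bases. Per kilobase of 3′UTR they held 0.579 matches to 3p, against 0.084 over all these genes, and 0.386 matches to 5p, against 0.198. There were 30 matches in all, of which 26 lay inside the gene as listed with the counts. Of the matches to 3p, 5 were 8mers, and no gene held an 8mer of 5p. An 8mer of 3p was found in 3.03% of the 11506 tested genes with a 3′UTR. Since the genes were chosen as reported targets, and seed matches are commonly used to find targets, these matches are no independent finding.

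Genes with more matches were not always those with the larger rise. Il6st held 6 matches, the most of the 10 genes, with the 8mer of 3p shown above, and was not called. Twf1 held a single match, its 8mer, and rose 1.84-fold, and Lgmn held none and rose 1.89-fold. Wasl and Ash1l each held 4 matches to 3p and no 8mer, with log2 fold changes of 0.98 and 0.36. Prkca was matched by 5p alone, 3 times. Of the 5 genes with an 8mer, 4 were called higher.

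Over all tested genes with a 3′UTR, the share called higher was 29.99% among the 7976 without a match and 57.6% among the 349 with an 8mer of miR-142-3p, and the share called lower was 35.3% and 15.2%. The median log2 fold change was −0.03 and 0.23. For 8mers of miR-142-5p the share higher was 41.8% and the share lower 27.0%. Genes with an 8mer have longer 3′UTRs, and among those with at least 1500 bases the share higher was 33.4% without a match and 57.0% with the 8mer of 3p, though the median lengths of these classes still differed (2287.5 and 3481 bases). The family members compared with the actin genes held few matches: Rac2, Was, Twf2 and Rock1 held none, and Cfl1 held 1 match to 5p. Their longest 3′UTRs were also shorter than those of the targets, with 2321 bases for Rac2 against 3341 for Rac1, 481 for Was against 2480 for Wasl, 394 for Twf2 against 1869 for Twf1, 1647 for Rock1 against 3182 for Rock2, and 1708 for Cfl1 against 2308 for Cfl2. Dstn, which rose, held 3 matches, 1 of them to 3p. Nsd1 held an 8mer of 3p and fell.

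**Figure D4:**
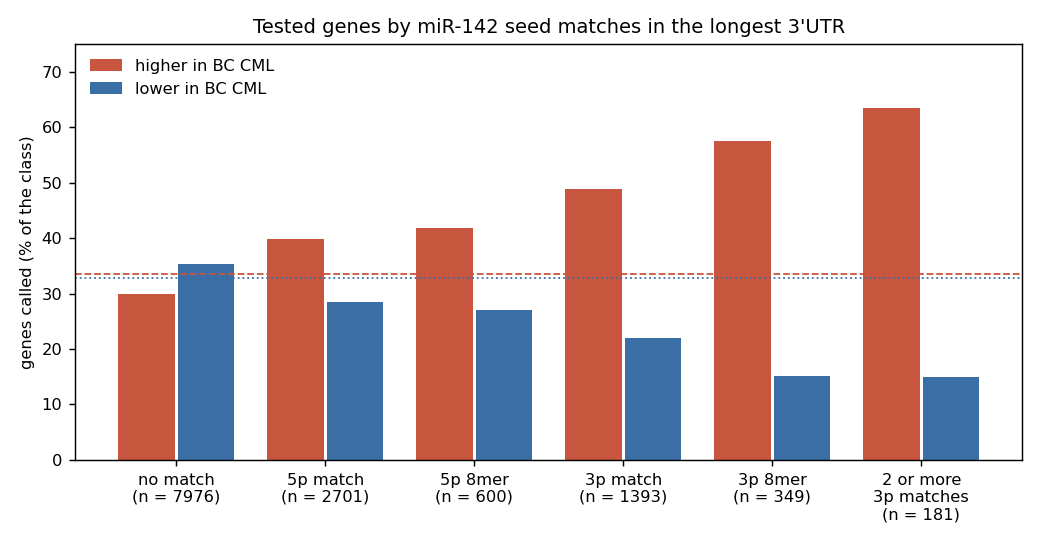
Share of tested genes called higher or lower in BC CML (vertical axis, % of the class) by the miR-142 seed matches in the longest 3′UTR, with the number of genes under each class, which overlap. Dashed and dotted lines give the shares called higher (33.5%) and lower (32.8%) over all 11506 genes with a 3′UTR, and the share higher goes from 29.99% without a match to 63.5% with at least 2 matches to 3p.

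The pathway lists around the reported targets held genes called in both directions, except protein kinase C, where none was called lower. The shares called in the Arp2/3 (29.2% higher and 29.2% lower), gp130 (33.3% and 26.7%), Toll-like receptor (25% and 25%) and histone methylation (30% and 30%) lists lay near the 32.6% and 32.7% of all tested genes. Cdc42, the GTPase that activates N-WASP, had a log2 fold change of 0.00 (adjusted p = 0.941). Of the 24 tested genes of the Arp2/3 complex and its activators, 7 were higher and 7 lower, with a median of −0.02 without Wasl. Abi2 (1.51, adjusted p = 4.4e-13) and Nckap1 (1.16, adjusted p = 6.0e-08), both of the WAVE complex, had larger log2 fold changes than Wasl.

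Actin filament turnover was divided, with 12 of 25 genes higher and 9 lower and a median of 0.04 without Cfl2 and Twf1. Next to the rise of Dstn stood the fall of Gmfg, which takes apart filament branches, from 147 ± 7.01 to 47.6 ± 4.66 CPM (log2 fold change −1.63, adjusted p = 7.8e-14).

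In the gp130 pathway 5 of 15 genes were higher and 4 lower, with a median of 0.04 without Il6st. In the Toll-like receptor adaptor pathway 6 of 24 genes were higher and 6 lower, with a median of −0.01 without Tirap. Tlr7, a receptor for single-stranded RNA, rose by 1.03 on the log2 scale (adjusted p = 1.2e-07). Of the 10 genes that write or read methylation of lysine 36 of histone H3, 3 were higher and 3 lower, with a median of −0.04 without Ash1l. Smyd2 (0.68) and Nsd2 (0.32), both methyltransferases, rose with adjusted p-values of 5.2e-06 and 4.1e-05.

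The protein kinase C family had 6 of 8 genes higher and none lower (1 lower when CP CML mouse 3 was left out), and a median of 0.24 without Prkca. Legumain, the cathepsins and their cystatin inhibitors had 14 of 18 genes higher and 3 lower, and a median of 0.73 without Lgmn. Ctsh (1.58, adjusted p = 2.5e-05), Ctsw (1.31, adjusted p = 6.7e-12) and Ctsl (1.25, adjusted p = 8.0e-10) rose most among those expressed at an average log2 CPM of at least 3. Ctsw encodes a cathepsin of natural killer and cytotoxic T cells, and Ctsh and Ctsl are lysosomal proteases that are also made by myeloid cells. These lists moved beside the neutrophil, monocyte, dendritic and natural killer cell markers given above, and the part of those cells in them was not tested.

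**Figure D5:**
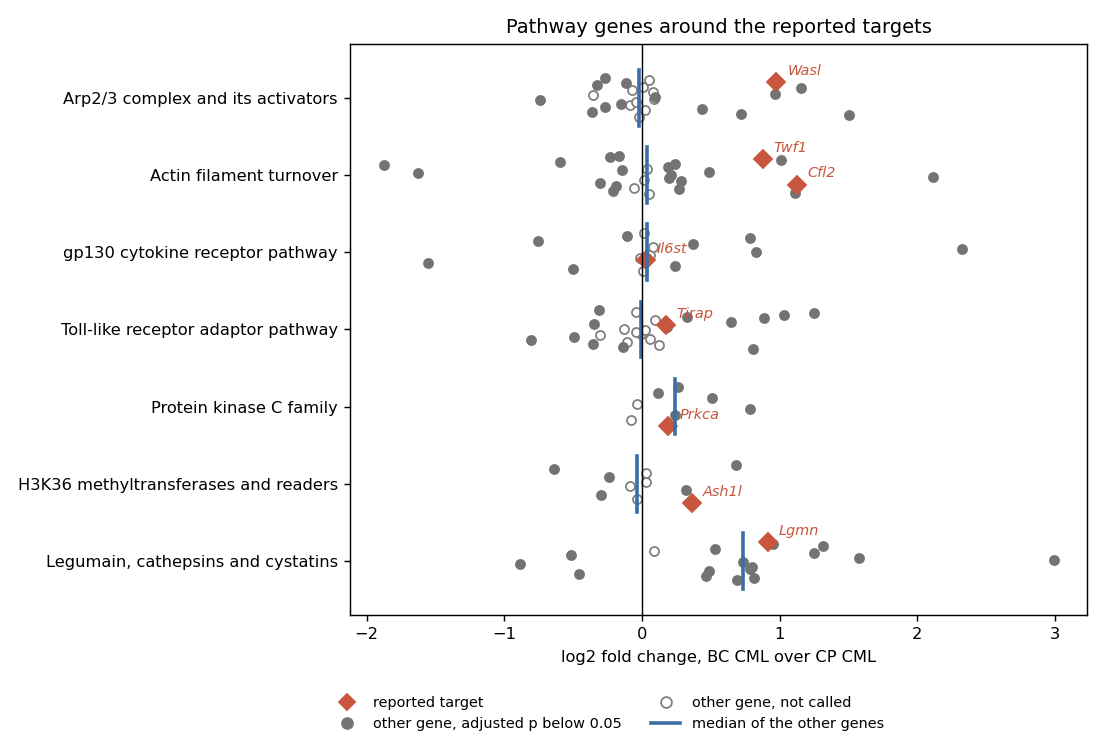
Log2 fold change between BC CML and CP CML (horizontal axis) of the tested genes in 7 pathway lists (rows), with the 8 reported targets in these lists as diamonds (Il6st and Tirap were not called), other genes called at an adjusted p below 0.05 as filled circles, other genes as open circles, and a bar at the median of the other genes. Wasl, Cfl2, Twf1, Ash1l, Tirap and Lgmn lie to the right of the median of the other genes in their list, Prkca (0.19 against 0.24) and Il6st (0.03 against 0.04) lie to the left, and the lysosomal protease list, with a median of 0.73 without Lgmn, lies to the right as a whole but for 3 genes that fell.

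Divided by gene length (RPKM), the 10 genes spanned a wide range of levels. In CP CML the order was Rac1 at 125 ± 4.30 RPKM, Il6st at 56.6 ± 2.32, Ash1l at 24.6 ± 1.94, Twf1 at 20.3 ± 1.39, Prkca at 17.5 ± 1.08, Lgmn at 13.6 ± 1.96, Rock2 at 12.5 ± 0.85, Wasl at 11.7 ± 1.11, Cfl2 at 8.54 ± 1.31 and Tirap at 2.79 ± 0.35 RPKM (SD, n = 8). Rac1, Il6st, Cfl2 and Tirap were each apart from their neighbours in this order, and the values of neighbours from Ash1l to Wasl overlapped. In BC CML Rac1 (182 ± 7.12 RPKM), Il6st (57.7 ± 6.77) and Tirap (3.13 ± 0.36) kept their places. Twf1, at 37.3 ± 1.40 RPKM, was then above Ash1l, at 31.7 ± 1.38, without overlap. Wasl, at 23.1 ± 1.08 RPKM, Cfl2, at 18.6 ± 1.54, and Lgmn, at 25.7 ± 8.44, had moved up among Prkca (20.1 ± 1.33) and Rock2 (18.6 ± 0.81), with overlap between neighbours from Ash1l to Rock2.

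Within groups, after taking the group mean from each mouse, Wasl varied with Ash1l (Pearson r = 0.71) and Rock2 with Ash1l (0.62) and Wasl (0.60), whereas Tirap and Ash1l (−0.75), Rock2 and Prkca (−0.73) and Prkca and Ash1l (−0.68) varied in opposite directions. These are the highest and lowest of 45 pairs over 14 mice, given as a description, since the genes of a mouse share 1 library. Over all 14 mice, the genes whose log2 CPM was most like that of Cfl2 were Dram2 (r = 0.985), Art2a-ps (0.978) and Zbtb41 (0.978). All 3 were higher in BC CML, with log2 fold changes of 0.89, 2.75 and 0.57, so these correlations hold the difference between the groups.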

How the data were processed

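The authors trimmed reads of mRNA libraries with Trimmomatic and FASTP, aligned them with STAR 2.6.0 and counted them per gene with HTSeq 0.11.1 (versions per the labels' processing notes), and deposited raw counts of 24091 genes on mm10 with positions and lengths. The annotation, strand setting and treatment of reads shared by similar genes were not given in the sources used here. The only rows that overlap the 10 genes are microRNAs with at most 11 reads (Mir3473a, Mir5098 and Mir7223).

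Counts were filtered by filterByExpr on the group, normalized by TMM and tested with edgeR 4.0.16 (glmQLFit with robust estimation, glmQLFTest) in R 4.3.3, without covariates, with Benjamini-Hochberg adjustment over 12248 genes at 0.05. The study itself used the likelihood ratio test of edgeR, tried here as an alternative. The script was tested on simulated data with far fewer changed genes than were called here. That test does not cover differences this widespread. Target to family member ratios used log2 of reads plus 0.5. Seed matches were sought in 3′UTRs of GENCODE vM21, on the same build.

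The genes, lists, family members and tests were chosen with earlier results of these data known. Named were the 10 genes, Mir142, their listed partners, at most 3 genes per pathway list with the largest absolute log2 fold change among those called whose average log2 CPM was 3 or more, and the 3 genes most like the called gene with the largest rise (no member fell). Some genes and 2 pathway lists are not reported here. Each mouse is 1 library. The chi-square per degree of freedom between libraries of a group was at least 2.99, so none was counted as a repeat of another.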

Additional observations from a re-analysis of the deposited data

Results flagged for a closer look

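Of 86 sets of values examined (the named genes, marker sums and total reads in each group), 4 had a mouse whose gap to its nearest neighbour was a large share of the range of its group, and chance gives about 1 in 20. Dstn was 25.5 CPM in CP CML mouse 8, next to 20.3 CPM, a gap of 0.608 of the range. Prkch was 464 CPM in CP CML mouse 2, next to 416 CPM (0.540 of the range). The sum of megakaryocyte and platelet markers was 6.27 CPM in BC CML mouse 6, next to 3.38 CPM (0.812 of the range). BC CML mouse 2 had the fewest reads of its group, 16145537, next to 18319039 (0.668 of the range). None of the 10 reported targets was among them.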

How the results depend on the processing

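The 8 calls among the reported targets were made under all 7 alternatives: DESeq2 1.42.0, edgeR's likelihood ratio test, scaling by RLE or by library size only, all genes kept whatever their counts, a minimum of more than 1 CPM in 6 samples, and the replicate number as a block. Over these the number of all genes called went from 7318 to 8719. Leaving out 1 mouse at a time gave 8 or 9 called targets and from 7721 to 7966 genes called in all; the ninth target was Tirap, without CP CML mouse 2. Il6st, not called in any fit, had log2 fold changes from −0.04 to 0.06.

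The groups share replicate numbers but not animals. The within-group deviations of same-numbered mice had a mean correlation of −0.024 (−0.273 to 0.356 over 6 pairs), and 2 of 6 correlated best with their own number. So few pairs cannot settle whether the numbers pair the mice. With the replicate block 7318 genes and the same 8 targets were called, Cfl2 at 1.20 and Lgmn at 0.90 on the log2 scale.

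In the protein kinase C family 1 gene was called lower without CP CML mouse 3. Restricting the 3′UTRs to at least 1500 bases, chosen after seeing the data, moved the share higher without a match from 29.99% to 33.4%. Depth limits Tirap most, at 184 to 329 reads per mouse.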
